A study of Mus musculus with 27 samples.

Results

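The 10 genes described here respond when amino acids run short or when ATF4, the transcription factor of amino acid stress, is active. They are Atf4 itself, its relatives in the response Atf5 and Ddit3, the response genes Trib3 and Chac1, the amino acid enzymes Asns, Psat1 and Phgdh, the leucine sensor Sesn2 and the cystine transporter Slc7a11. The list was drawn up by known role, with earlier results of these data known. Its symbols were matched to the gene IDs of the count table through GENCODE M21. The table holds 53801 IDs, and all 10 genes were among the 18363 that passed the filter on low counts. Their RNA was measured in 27 RNA sequencing libraries of TX1072, an embryonic stem cell line from a BL/6J x CAST-EiJ mouse cross in which doxycycline turns on Xist, the RNA that silences the X chromosome it coats. All cells carried SPEN, a repressor that binds Xist RNA, as a fusion to an auxin-inducible degron, and all grew on gelatin in medium with serum, 2i inhibitors, leukemia inhibitory factor and beta-mercaptoethanol.

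The SPOC line expressed BglG-GFP-SPOC, a bacterial RNA-binding protein joined to GFP and to the SPOC domain of SPEN, and the GFP line expressed BglG-GFP without that domain. In each line, Dox+Auxin cells were first treated with auxin (12 h) and afterwards with both agents (24 h). Dox cells had doxycycline at 1 ug/mL for 24 h, and untreated cells neither agent. Each SPOC group held 5 libraries and each GFP group 4, while the design text speaks of 4 biological replicates. No group had auxin alone or doxycycline in cells lacking inducible Xist, so a Dox+Auxin value carries doxycycline, Xist, auxin and SPEN loss together. Since 1 line carried each construct, what SPOC does and what else sets these lines apart cannot be told apart.

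Cells tune this response through the initiation factor eIF2. The kinases GCN2, PERK, HRI and PKR phosphorylate it when amino acids run short, proteins misfold, heme or mitochondria fail, or double-stranded RNA is present, and most translation then slows while ATF4 protein is made from its mRNA. ATF4 binds, often together with a C/EBP partner, to a composite site in the promoters of genes that make, import and charge amino acids. In embryonic stem cells the same genes also feed rapid growth, with serine made by Phgdh and Psat1 going into nucleotides and methyl donors.

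Total counts ranged from 28936459 to 45489094 per library. Naive stem cell markers summed to between 4786 and 5788 CPM (counts scaled for library size by TMM) over all libraries, against 98.9 to 157 CPM for the neural list, 23.3 to 36.8 CPM for the fibroblast and mesoderm lists and 8.15 to 13.7 CPM for the primitive endoderm list. Xist was at 289 to 415 CPM in SPOC Dox+Auxin, 307 to 458 CPM in SPOC Dox, 382 to 630 CPM in GFP Dox+Auxin and 746 to 918 CPM in GFP Dox libraries. In untreated libraries it was at 1.03 to 7.82 CPM, except in the library labelled SPOC untreated replicate 2, which held 178 CPM, so results that rest on that library were also computed without it. Without it, the number of the 10 genes called was 3 in place of 4 for SPOC against GFP untreated, and the same as with it in the other 11 comparisons. SPEN protein was not measured, and whether reads of the SPOC construct were counted at Spen was not tested. Spen mRNA averaged 1051 ± 114 CPM in SPOC Dox+Auxin, 352 ± 15.0 CPM in SPOC Dox and 343 ± 11.4 CPM in SPOC untreated cells (SD, n = 5), and 860.0 ± 223 CPM in GFP Dox+Auxin, 197 ± 15.4 CPM in GFP Dox and 174 ± 12.1 CPM in GFP untreated cells (SD, n = 4).

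The 10 genes covered a wide range of levels. Atf4 lies at chr15:80255184-80257541 (+), Atf5 at chr7:44812256-44816658 (-) and Ddit3 at chr10:127290774-127296288 (+). Trib3 lies at chr2:152337422-152344032 (-), Chac1 at chr2:119351229-119354381 (+), Asns at chr6:7675169-7693254 (-) and Psat1 at chr19:15904678-15947337 (-). Phgdh lies at chr3:98313170-98339990 (-), Sesn2 at chr4:132492032-132510501 (-) and Slc7a11 at chr3:49892526-50443614 (-), all in GRCm38, the same build as mm10. Per length of gene, in the authors' deposited values, Asns was the most abundant with a median of 9519 over the 27 libraries, above every library of any other gene of the 10. Psat1 (4817) and Atf4 (4171) followed with overlapping ranges, then Phgdh (2591) and Sesn2 (1907), also overlapping. Atf5 (826) overlapped Trib3 (652), Chac1 (261) overlapped Ddit3 (257), and Slc7a11 came last at 2.27. Among all genes tested, Asns stood at percentile 99.6 of these per-length levels, Chac1 at percentile 64.1 and Slc7a11 at percentile 2.64.

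Counting was uncertain at some of these genes, because the sources used here do not say whether reads were counted by strand. Ddit3 overlaps Mars, which runs on the opposite strand at its 3′ end, and the start of Atf5 overlaps Nup62 and Il4i1 on the opposite strand. Reads of such stretches cannot be assigned with certainty. A second Ddit3 ID of the table, at chr10:127290829-127293753, had 0 counts summed over the 27 libraries and was not used.

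The composite site for ATF4 and C/EBP is shown where the 250 bases upstream of a RefSeq start hold it, since it is the sequence through which ATF4 is known to act. The letters TGATGNAAN, searched on both strands, occurred in 3 of the 10 genes and in 3.89% of 27025 genes with such a window. These stretches are from RefSeq (GRCm38.p6), printed 5′ to 3′ on the strand of the gene, with matches in capitals. The Chac1 stretch, at chr2:119351018-119351086 (+), holds 1 match on the opposite strand. The Asns stretch, at chr6:7693214-7693242 (-), holds 1 match, and the Slc7a11 stretch, at chr3:50443623-50443709 (-), holds 2 that face each other. The Asns stretch is upstream of the RefSeq start and inside the GENCODE span of the gene, so only 29 bases of it are shown.
Chac1: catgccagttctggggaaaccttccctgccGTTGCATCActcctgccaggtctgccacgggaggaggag
Asns: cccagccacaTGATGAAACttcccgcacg
Slc7a11: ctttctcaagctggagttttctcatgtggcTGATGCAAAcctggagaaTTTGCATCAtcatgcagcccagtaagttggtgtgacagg
The stricter letters TGATGCAAT were in none of the 10 windows and in 0.192% of genes. The palindrome TGACGTCA, searched as a comparison, was also in none of the 10, and in 1.77% of genes. For Trib3 the bases after the RefSeq start were not found in a GENCODE transcript of the gene. Its window, with its lowest base at chr2:152344011, still overlaps the start of the GENCODE gene at chr2:152344032 (-). A match is a description of letters only, and binding of ATF4 was not measured here.

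Upstream ATGs, the start codons in a 5′ UTR through which translation of several stress mRNAs is controlled, were counted in the principal GENCODE transcripts. Atf4 had 3 in 594 bases, Atf5 had 2 in 373 bases and Ddit3 had 2 in 186 bases. Psat1, Slc7a11, Sesn2 and Asns had 1 each, and Chac1, Trib3 and Phgdh had 0. At least 1 ATG was thus found in 7 of the 10 genes, against 54.2% of 16297 protein-coding genes. For those genes the median 5′ UTR was 170 bases long. These counts bear on protein output, which RNA counts do not show.

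Cells with doxycycline and auxin were compared with untreated cells, a contrast in which doxycycline, Xist, auxin and SPEN loss change together. Genes were called at an adjusted p under 0.05 by edgeR, the p being adjusted by Benjamini-Hochberg over all genes tested, and fold changes are on the log2 scale. In both lines Chac1 and Ddit3 fell, Psat1 and Phgdh fell, and Sesn2 rose. Atf4 fell by 19.9% in the GFP line, and did not pass the test in the SPOC line, where its change was -4.31%. Of the 10 genes, 2 rose and 4 fell in the SPOC line, where 33.3% of all genes were called (16.7% higher and 16.6% lower). In the GFP line 1 rose and 6 fell, where 38.2% of all genes were called (19.9% higher and 18.4% lower). The median log2 fold change of the 10 genes was -0.10 in the SPOC line and -0.21 in the GFP line, against -0.01 and -0.00 for all genes. Libraries of both groups did not overlap for 4 of the 10 genes in the SPOC line (19.1% of all genes) and for 6 in the GFP line (35.8% of all genes). In bulk RNA, fewer cells making a transcript and less of it per cell cannot be told apart.

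Both lines were also compared between Dox+Auxin and Dox, the comparison in which doxycycline is the same on both sides. Auxin and SPEN loss still change together in it, and Xist was not the same on both sides. In the GFP line Xist was at 382 to 630 CPM with Dox+Auxin against 746 to 918 CPM with Dox. In the SPOC line its ranges overlapped, at 289 to 415 CPM and 307 to 458 CPM. Here 1 gene rose and 8 fell in the SPOC line, where 32% of all genes were called (16.6% higher and 15.4% lower). In the GFP line 1 rose and 7 fell, with 47.6% of all genes called (24.7% higher and 22.9% lower). The median log2 fold change of the 10 was -0.19 in the SPOC line and -0.24 in the GFP line, against -0.01 and 0.00 for all genes. Libraries did not overlap for 5 genes in the SPOC line (18.6% of all genes) and for 8 in the GFP line (42.2% of all genes).

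Fewer of the 10 genes were called with Dox alone. In the SPOC line 3 rose and 0 fell against untreated, where 13.5% of all genes were called (6.16% higher and 7.33% lower). In the GFP line 3 rose and 2 fell, with 20.9% of all genes called (10.1% higher and 10.8% lower). Atf5 and Asns rose in both lines. Libraries did not overlap for 3 of the 10 genes in the SPOC line (9.6% of all genes) and for 6 in the GFP line (27% of all genes). These 3 comparisons share libraries within a line, so their values are set side by side below without being counted as separate support.

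**Figure D1:**
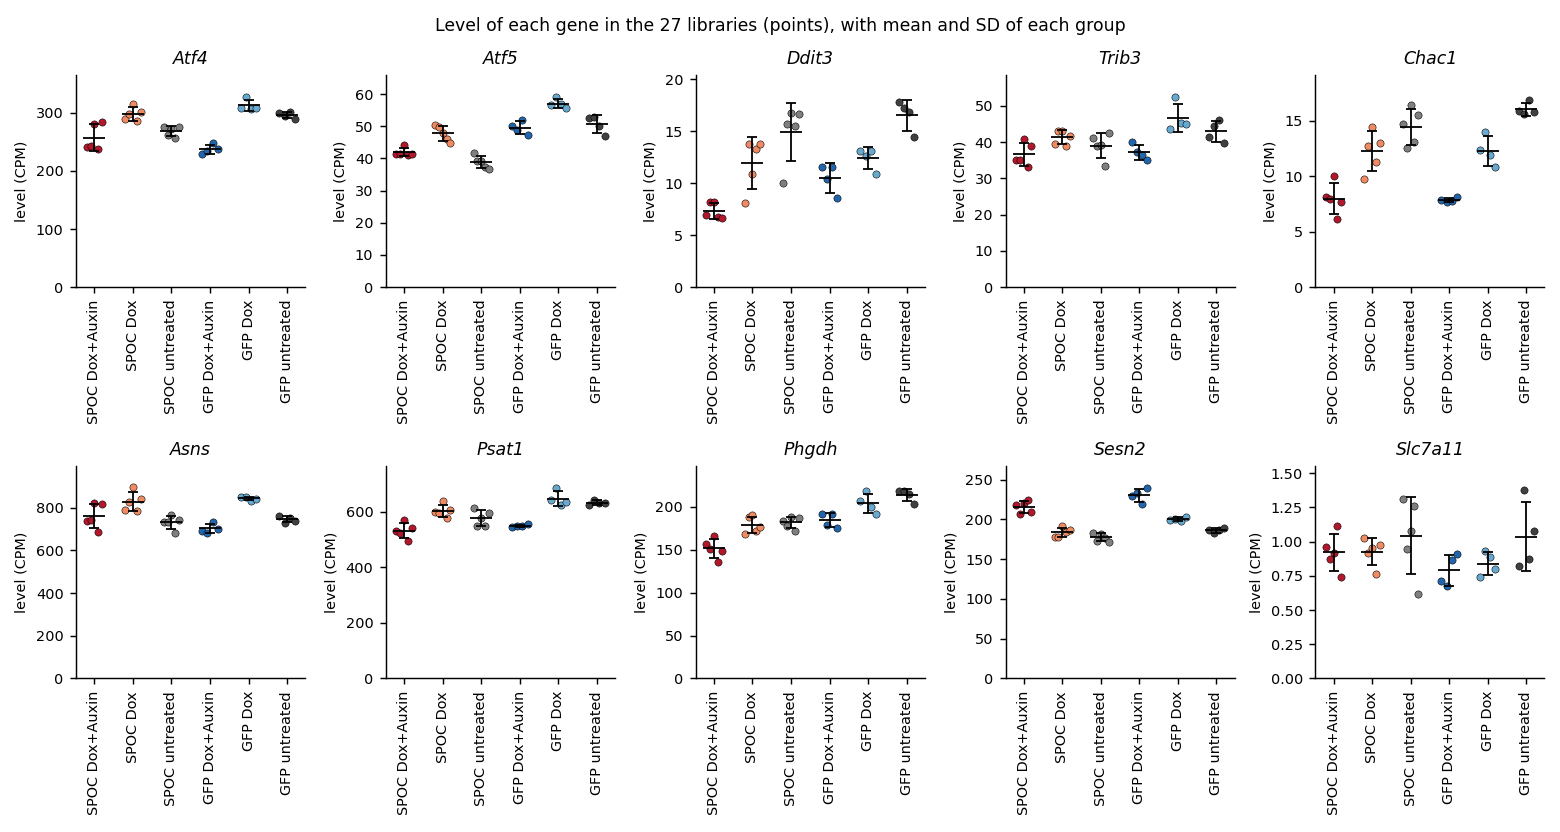
Levels of the 10 genes in CPM (vertical axes, from 0) in each of the 27 libraries, with groups along the horizontal axes, points for libraries, and bars for the group mean and SD. Chac1 lies at 6.14 to 10.0 CPM in SPOC Dox+Auxin and 7.71 to 8.15 CPM in GFP Dox+Auxin, below all untreated libraries, while Sesn2 is highest with Dox+Auxin in both lines.

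Atf4 encodes the bZIP transcription factor of the response, whose output is set largely by translation. In the SPOC line it was at 241, 243, 281, 237 and 284 CPM with Dox+Auxin, 289, 298, 316, 286 and 301 CPM with Dox, and 275, 262, 273, 257 and 276 CPM untreated. With Dox+Auxin, SPOC replicates 3 and 5 lay above every untreated library and replicates 1, 2 and 4 below every one, and no Dox+Auxin library reached the lowest Dox library. GFP libraries held 229, 235, 247 and 238 CPM with Dox+Auxin, 309, 328, 307 and 308 CPM with Dox, and 300, 294, 301 and 290 CPM untreated, and none of these 3 groups overlapped another. Against untreated, the log2 fold change of Dox+Auxin was -0.06 (SE 0.04, adjusted p = 0.25) in the SPOC line and -0.32 (SE 0.05, adjusted p = 1.6e-06) in the GFP line. Against Dox, Atf4 fell by 0.21 (SE 0.04, adjusted p = 0.00014) in the SPOC line and by 0.40 (SE 0.05, adjusted p = 1.8e-08) in the GFP line. With Dox against untreated it rose by 0.15 (SE 0.04, adjusted p = 0.012) in the SPOC line and was at 0.08 (SE 0.05, adjusted p = 0.24) in the GFP line, where it passed with only those 2 groups in the fit (adjusted p = 0.030). The SPOC value against untreated passed the test at -0.10 (adjusted p = 0.045) without Dox+Auxin replicate 5.

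Atf5, a close relative of Atf4 that is linked to mitochondrial stress, was highest with Dox in both lines. It held 41.4, 41.5, 44.2, 41.1 and 41.5 CPM in SPOC Dox+Auxin, 50.5, 49.7, 47.8, 46.2 and 44.9 CPM in SPOC Dox, and 41.7, 39.2, 39.2, 37.4 and 36.8 CPM in SPOC untreated libraries. GFP libraries held 50.2, 49.0, 51.9 and 47.3 CPM with Dox+Auxin, 56.7, 59.0, 56.8 and 55.8 CPM with Dox, and 52.7, 52.9, 50.2 and 47.0 CPM untreated. Dox libraries of each line overlapped no other group of that line, while Dox+Auxin and untreated libraries overlapped. Dox against untreated gave a rise of 0.30 (SE 0.04, adjusted p = 3.1e-06) in the SPOC line and of 0.17 (SE 0.04, adjusted p = 0.0045) in the GFP line. With Dox+Auxin against Dox it fell by 0.19 (SE 0.04, adjusted p = 0.00052) in the SPOC line and by 0.20 (SE 0.04, adjusted p = 0.00031) in the GFP line. Against untreated, Dox+Auxin was at 0.11 (SE 0.04, adjusted p = 0.035) in the SPOC line and at -0.03 (SE 0.04, adjusted p = 0.61) in the GFP line. That SPOC call was lost without Dox+Auxin replicate 3 (adjusted p = 0.10), untreated replicate 4 (adjusted p = 0.092) or untreated replicate 5 (adjusted p = 0.096), and also without the filter on low counts (adjusted p = 0.062) and with only those 2 groups in the fit (adjusted p = 0.052).

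Ddit3 encodes CHOP, a bZIP factor that favours cell death when stress persists. SPOC libraries held 6.97, 8.14, 8.18, 6.73 and 6.65 CPM with Dox+Auxin, 8.05, 13.7, 10.9, 13.3 and 13.8 CPM with Dox, and 10.0, 15.7, 16.7, 15.5 and 16.6 CPM untreated. Replicate 1 was the lowest of its group both with Dox and untreated in that line. GFP libraries held 11.5, 10.4, 11.6 and 8.54 CPM with Dox+Auxin, 13.1, 12.6, 13.0 and 10.9 CPM with Dox, and 17.8, 17.2, 16.8 and 14.4 CPM untreated. Every Dox+Auxin library was below every untreated library of its line, and the Dox+Auxin and Dox libraries overlapped in both lines. Against untreated, Dox+Auxin lowered Ddit3 by 1.02 (SE 0.14, adjusted p = 2.3e-06) in the SPOC line and by 0.65 (SE 0.14, adjusted p = 0.00077) in the GFP line. Against Dox it fell by 0.71 (SE 0.14, adjusted p = 0.00030) in the SPOC line and was at -0.24 (SE 0.15, adjusted p = 0.19) in the GFP line, where it passed at -0.26 with only those 2 groups in the fit (adjusted p = 0.032). Dox against untreated was at -0.32 (SE 0.13, adjusted p = 0.12) in the SPOC line and at -0.41 (SE 0.14, adjusted p = 0.039) in the GFP line. The SPOC value passed at -0.43 (adjusted p = 0.013) without untreated replicate 1, and at -0.32 with a replicate block (adjusted p = 0.0046). The GFP call was lost when any of the 4 Dox libraries or any of untreated replicates 1, 2 and 3 was left out, with adjusted p between 0.057 and 0.12, and without the filter on low counts (adjusted p = 0.10).

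Chac1 encodes an enzyme that breaks down glutathione and is among the strongest ATF4 targets known. It held 8.16, 7.92, 10.0, 6.14 and 7.64 CPM in SPOC Dox+Auxin, 9.73, 12.8, 14.5, 11.3 and 13.0 CPM in SPOC Dox, and 14.8, 12.5, 16.4, 13.1 and 15.5 CPM in SPOC untreated libraries. GFP libraries held 7.90, 7.71, 7.75 and 8.15 CPM with Dox+Auxin, 12.4, 14.0, 11.9 and 10.8 CPM with Dox, and 15.9, 15.6, 16.9 and 15.8 CPM untreated. The 3 GFP groups did not overlap, and in the SPOC line Dox+Auxin replicate 3 lay above Dox replicate 1. Dox+Auxin against untreated lowered Chac1 by 0.86 (SE 0.10, adjusted p = 1.2e-07) in the SPOC line and by 1.03 (SE 0.11, adjusted p = 1.5e-08) in the GFP line, a change of -44.7% and -50.9%. Against Dox the falls were 0.62 (SE 0.10, adjusted p = 2.0e-05) in the SPOC line and 0.64 (SE 0.11, adjusted p = 2.3e-05) in the GFP line. Dox against untreated was at -0.23 (SE 0.10, adjusted p = 0.12) in the SPOC line and fell by 0.38 (SE 0.11, adjusted p = 0.0086) in the GFP line. The SPOC value passed without Dox replicate 3 (adjusted p = 0.047) and with a replicate block (adjusted p = 0.018).

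Trib3 encodes a pseudokinase that dampens ATF4 and insulin signalling. Its SPOC libraries spanned 33.2 to 40.9 CPM with Dox+Auxin, 39.0 to 43.1 CPM with Dox and 33.4 to 42.5 CPM untreated, and all 3 ranges overlapped. GFP libraries spanned 35.1 to 39.9 CPM with Dox+Auxin, 43.7 to 52.3 CPM with Dox and 39.6 to 46.1 CPM untreated, where Dox+Auxin was apart from Dox. Against Dox it fell by 0.17 (SE 0.06, adjusted p = 0.032) in the SPOC line and by 0.32 (SE 0.07, adjusted p = 0.00025) in the GFP line. Against untreated it was at -0.09 (SE 0.06, adjusted p = 0.28) in the SPOC line and at -0.21 (SE 0.07, adjusted p = 0.017) in the GFP line. The SPOC call against Dox was lost without any one of 6 libraries, Dox+Auxin replicates 1, 2 and 4 and Dox replicates 2, 3 and 5 (adjusted p between 0.054 and 0.099), or without the filter on low counts (adjusted p = 0.081). The GFP call against untreated was lost without Dox+Auxin replicate 4 (adjusted p = 0.060), untreated replicate 2 (adjusted p = 0.053) or untreated replicate 3 (adjusted p = 0.075). Dox against untreated was at 0.08 (SE 0.06, adjusted p = 0.45) in the SPOC line and at 0.12 (SE 0.07, adjusted p = 0.24) in the GFP line.

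**Figure D2:**
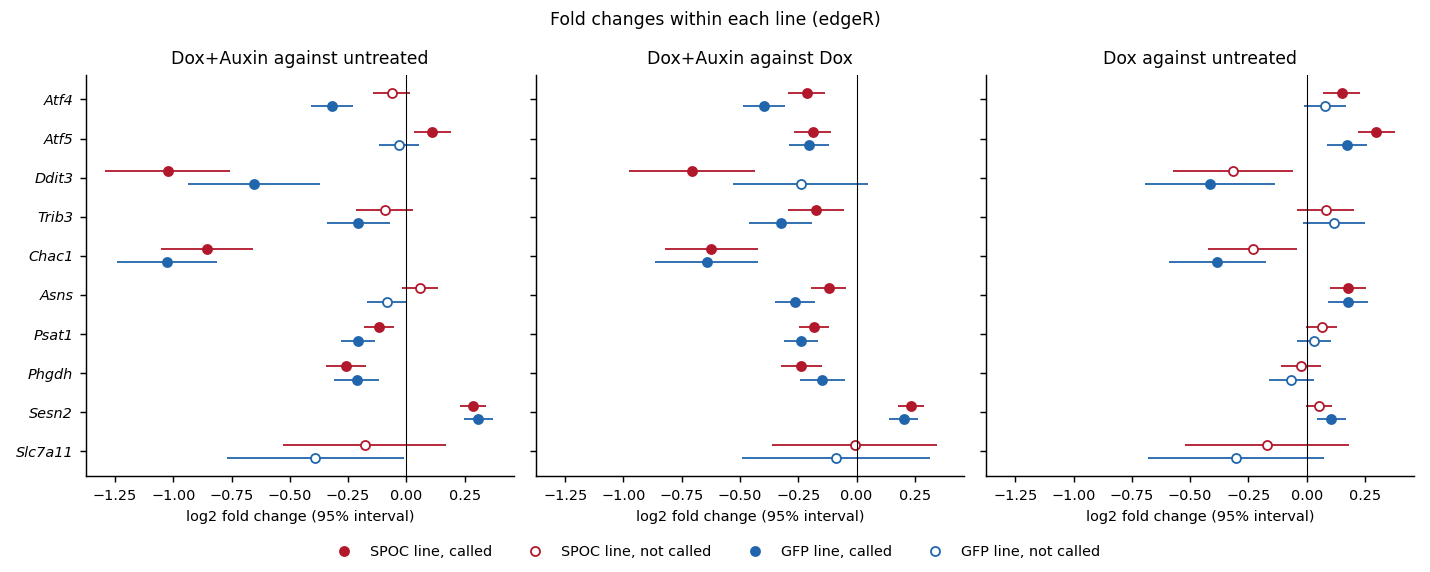
Log2 fold changes (horizontal axes) of the 10 genes in the SPOC line (upper point of each pair) and the GFP line (lower point), with 95% intervals, for Dox+Auxin against untreated, Dox+Auxin against Dox and Dox against untreated. Filled points passed the test across all genes: Chac1 lies left of 0 with Dox+Auxin in both lines, at -0.86 and -1.03 against untreated, and Sesn2 lies right of 0, at 0.28 and 0.31.

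Asns makes asparagine from aspartate and is the classical amino acid response gene. With Dox+Auxin it lay near its untreated level and below its Dox level. SPOC libraries held 737, 740, 821, 687 and 818 CPM with Dox+Auxin, 790, 824, 894, 785 and 840 CPM with Dox, and 730, 733, 766, 683 and 744 CPM untreated. As for Atf4, SPOC Dox+Auxin replicates 3 and 5 were above every untreated library. GFP libraries held 691, 683, 732 and 701 CPM with Dox+Auxin, 848, 851, 831 and 840 CPM with Dox, and 761, 729, 751 and 738 CPM untreated. Dox raised Asns against untreated by 0.18 (SE 0.04, adjusted p = 0.0021) in the SPOC line and by 0.18 (SE 0.04, adjusted p = 0.0033) in the GFP line, with no overlap in either. Against Dox, Dox+Auxin lowered it by 0.12 (SE 0.04, adjusted p = 0.018) in the SPOC line and by 0.26 (SE 0.04, adjusted p = 1.0e-05) in the GFP line. Against untreated, Dox+Auxin was at 0.06 (95% interval -0.02 to 0.13, adjusted p = 0.28) in the SPOC line and at -0.09 (95% interval -0.17 to 0.00, adjusted p = 0.13) in the GFP line. The GFP value passed the test at -0.09 both with only those 2 groups in the fit (adjusted p = 0.035) and with a replicate block (adjusted p = 0.0059). The SPOC call against Dox was lost without Dox+Auxin replicate 1 (adjusted p = 0.051), Dox+Auxin replicate 4 (adjusted p = 0.084) or Dox replicate 3 (adjusted p = 0.084), or with only those 2 groups in the fit (adjusted p = 0.067).

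Phgdh and Psat1 catalyse successive steps of serine synthesis from a glycolytic intermediate. Both fell with Dox+Auxin in both lines, against untreated and against Dox. Psat1 was at 531, 522, 569, 495 and 541 CPM in SPOC Dox+Auxin, 597, 595, 639, 578 and 605 CPM in SPOC Dox, and 612, 549, 577, 549 and 595 CPM in SPOC untreated libraries. In the GFP line Psat1 held 546, 547, 546 and 554 CPM with Dox+Auxin, 643, 685, 625 and 633 CPM with Dox, and 624, 642, 632 and 631 CPM untreated. Dox+Auxin libraries were below all Dox libraries in both lines, and below all untreated libraries in the GFP line. Against untreated, Psat1 fell by 0.12 (SE 0.03, adjusted p = 0.0069) in the SPOC line and by 0.21 (SE 0.04, adjusted p = 5.2e-05) in the GFP line, and against Dox by 0.18 (SE 0.03, adjusted p = 8.8e-05) in the SPOC line and 0.24 (SE 0.04, adjusted p = 4.0e-06) in the GFP line.

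Phgdh held 157, 151, 166, 136 and 149 CPM in SPOC Dox+Auxin, 168, 188, 191, 172 and 176 CPM in SPOC Dox, and 183, 178, 189, 172 and 187 CPM in SPOC untreated libraries. In the GFP line it was at 191, 179, 192 and 176 CPM with Dox+Auxin, 207, 219, 200 and 192 CPM with Dox, and 218, 219, 215 and 203 CPM untreated. In each line every Dox+Auxin library was below all Dox and all untreated libraries. Against untreated it fell by 0.26 (SE 0.04, adjusted p = 3.1e-05) in the SPOC line and by 0.21 (SE 0.05, adjusted p = 0.00082) in the GFP line. Against Dox it fell by 0.24 (SE 0.04, adjusted p = 0.00011) in the SPOC line and by 0.15 (SE 0.05, adjusted p = 0.014) in the GFP line. This last call was lost without GFP Dox+Auxin replicate 4 (adjusted p = 0.056) or GFP Dox replicate 2 (adjusted p = 0.080). With Dox against untreated, neither Phgdh (-0.02 in the SPOC line and -0.07 in the GFP line) nor Psat1 (0.06 and 0.03) passed the test. Psat1 passed in the SPOC line with a replicate block (adjusted p = 0.048).

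Sesn2 encodes sestrin 2, a leucine sensor that holds back the growth kinase mTORC1, and rose with Dox+Auxin in both lines, where most of the 10 genes fell or did not pass the test. SPOC libraries held 218, 207, 221, 225 and 209 CPM with Dox+Auxin, 178, 178, 191, 184 and 187 CPM with Dox, and 183, 173, 181, 177 and 172 CPM untreated. GFP libraries held 229, 233, 219 and 240 CPM with Dox+Auxin, 199, 200, 198 and 203 CPM with Dox, and 186, 182, 187 and 189 CPM untreated. In both lines every Dox+Auxin library was above every Dox and every untreated library. Against untreated it rose by 0.28 (SE 0.03, adjusted p = 4.9e-09) in the SPOC line and by 0.31 (SE 0.03, adjusted p = 5.1e-09) in the GFP line, a gain of 21.8% and 23.8%. Against Dox it rose by 0.23 (SE 0.03, adjusted p = 1.9e-07) in the SPOC line and by 0.20 (SE 0.03, adjusted p = 3.7e-06) in the GFP line. Dox against untreated was at 0.05 (SE 0.03, adjusted p = 0.26) in the SPOC line and at 0.10 (SE 0.03, adjusted p = 0.016) in the GFP line, a call lost without GFP Dox replicate 4 (adjusted p = 0.051) or GFP untreated replicate 2 (adjusted p = 0.060), or without the filter on low counts (adjusted p = 0.074).

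Slc7a11, the light chain of the cystine and glutamate exchanger that supplies cysteine for glutathione, was close to the lower limit of what was counted. It had 19 to 63 counts per library. Its SPOC libraries spanned 0.743 to 1.11 CPM with Dox+Auxin, 0.762 to 1.03 CPM with Dox and 0.614 to 1.31 CPM untreated, and its GFP libraries 0.677 to 0.908 CPM with Dox+Auxin, 0.740 to 0.927 CPM with Dox and 0.822 to 1.37 CPM untreated. All ranges of a line overlapped. Dox+Auxin against untreated was at -0.18 (95% interval -0.53 to 0.17, adjusted p = 0.47) in the SPOC line and at -0.39 (95% interval -0.77 to -0.01, adjusted p = 0.11) in the GFP line. Changes of this size did not pass the test at this depth.

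The lines were compared within each treatment, with the SPOC line set against the GFP line. Of the 10 genes, 1 was higher and 4 were lower with Dox+Auxin, where 24.6% of all genes were called (11.2% higher and 13.5% lower). With Dox, 0 were higher and 3 lower, where 10.7% of all genes were called (5.36% higher and 5.33% lower). In untreated cells 0 were higher and 4 lower, where 11.5% of all genes were called (5.78% higher and 5.77% lower). SPOC and GFP libraries did not overlap for 3 genes with Dox+Auxin (17.5% of all genes), 4 with Dox (13.3%) and 4 untreated (12.9%). Atf5 and Phgdh were lower in the SPOC line under all 3 treatments. Atf5 was at -0.24 (SE 0.04, adjusted p = 0.00011) with Dox+Auxin, -0.26 (SE 0.04, adjusted p = 0.00014) with Dox and -0.38 (SE 0.04, adjusted p = 6.9e-06) untreated, and SPOC and GFP libraries did not overlap in any of the 3. Phgdh was at -0.28 (SE 0.05, adjusted p = 6.0e-05) with Dox+Auxin, -0.19 (SE 0.05, adjusted p = 0.0072) with Dox and -0.23 (SE 0.05, adjusted p = 0.0017) untreated, again with no overlap.

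With Dox+Auxin, Ddit3 was also lower in the SPOC line, by 0.52 (SE 0.15, adjusted p = 0.011), with 6.65 to 8.18 CPM in the SPOC line against 8.54 to 11.6 CPM in the GFP line. Atf4 was at 0.12 (SE 0.04, adjusted p = 0.051) with Dox+Auxin. It passed with DESeq2 size factors (adjusted p = 0.043), by the DESeq2 Wald test (adjusted p = 0.047) and with a replicate block (adjusted p = 0.0063). It also passed without SPOC Dox+Auxin replicate 1, 2 or 4 or GFP Dox+Auxin replicate 3 (adjusted p between 0.018 and 0.038). Psat1 (-0.13, SE 0.04, adjusted p = 0.015) and Atf4 (-0.14, SE 0.04, adjusted p = 0.032) were lower in SPOC untreated cells. That Atf4 call was lost without SPOC untreated replicate 2 (adjusted p = 0.057), the library with high Xist, and without SPOC untreated replicate 4 or any of GFP untreated replicates 1, 2 and 3 (adjusted p between 0.063 and 0.088). Sesn2 was lower in SPOC Dox cells (-0.12, SE 0.03, adjusted p = 0.0076). Psat1 was not called with Dox, and passed by the DESeq2 Wald test (-0.10, adjusted p = 0.044) and with a replicate block (-0.10, adjusted p = 0.0040). Psat1 passed there also without the filter on low counts (adjusted p = 0.027) or without SPOC Dox replicate 3 (adjusted p = 0.022). Trib3 with Dox passed only with a replicate block (adjusted p = 0.011) or with only those 2 groups in the fit (adjusted p = 0.034). With Dox+Auxin the calls of Sesn2 (-0.09, SE 0.03, adjusted p = 0.022) and Asns (0.12, SE 0.04, adjusted p = 0.041) rested on single libraries. The Sesn2 call was lost without SPOC Dox+Auxin replicate 2 or 5 or GFP Dox+Auxin replicate 2 or 4 (adjusted p between 0.062 and 0.086), and the Asns call without SPOC Dox+Auxin replicate 3 or 5 or GFP Dox+Auxin replicate 1, 2 or 4 (adjusted p between 0.068 and 0.13). Both were also lost without the filter on low counts (adjusted p = 0.068 for Sesn2 and 0.052 for Asns) and with only those 2 groups in the fit (adjusted p = 0.11 for Sesn2 and 0.094 for Asns).

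Whether the response itself differed between the lines was tested as the SPOC effect minus the GFP effect. For Dox+Auxin against untreated, 1 of the 10 genes passed, where 2.4% of all genes were called (1.2% higher and 1.2% lower). This was Atf4, with a difference of 0.26 (SE 0.06, adjusted p = 0.022). The difference was 0.24 (adjusted p = 0.058) without GFP Dox+Auxin replicate 1. Ddit3 was at -0.37 (95% interval -0.76 to 0.02, adjusted p = 0.34), Chac1 at 0.17 (95% interval -0.12 to 0.46, adjusted p = 0.60) and Sesn2 at -0.02 (95% interval -0.11 to 0.06, adjusted p = 0.84). For Dox+Auxin against Dox, 0 of the 10 passed by edgeR, 3 had an unadjusted p under 0.05, and 1 passed by DESeq2, where 8.14% of all genes were called (3.49% higher and 4.65% lower). Atf4 was at 0.18 (SE 0.06, adjusted p = 0.060). That value passed without SPOC Dox+Auxin replicate 1, 2 or 4, SPOC Dox replicate 3 or GFP Dox+Auxin replicate 3 (adjusted p between 0.028 and 0.049). Ddit3, at -0.47 (SE 0.20, adjusted p = 0.17), passed without SPOC Dox replicate 1 (adjusted p = 0.043). Asns, at 0.14 (SE 0.06, adjusted p = 0.14), passed without SPOC Dox+Auxin replicate 4 (adjusted p = 0.042) or SPOC Dox replicate 3 (adjusted p = 0.050). For Dox against untreated, 0 of the 10 passed by edgeR and 0 by DESeq2, 1 had an unadjusted p under 0.05, and 0.24% of all genes were called (0.229% higher and 0.0109% lower).

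Libraries of 1 group also varied together. After each gene was centred on its group means, Atf4 and Asns had a Pearson correlation of 0.89 over the 27 libraries, Chac1 and Phgdh of 0.84, Chac1 and Psat1 of 0.77 and Atf4 and Psat1 of 0.76. Of the 45 pairs, 31 were above 0, with a median of 0.29 and a range from -0.38 to 0.89. Without the centring, 33 pairs were above 0, with a median of 0.41 and a range from -0.79 to 0.89. Sesn2 with Chac1 was the lowest pair over all libraries (-0.79), and was at 0.23 after the centring. These points share libraries, scaling and, for libraries of a group, culture conditions.

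**Figure D3:**
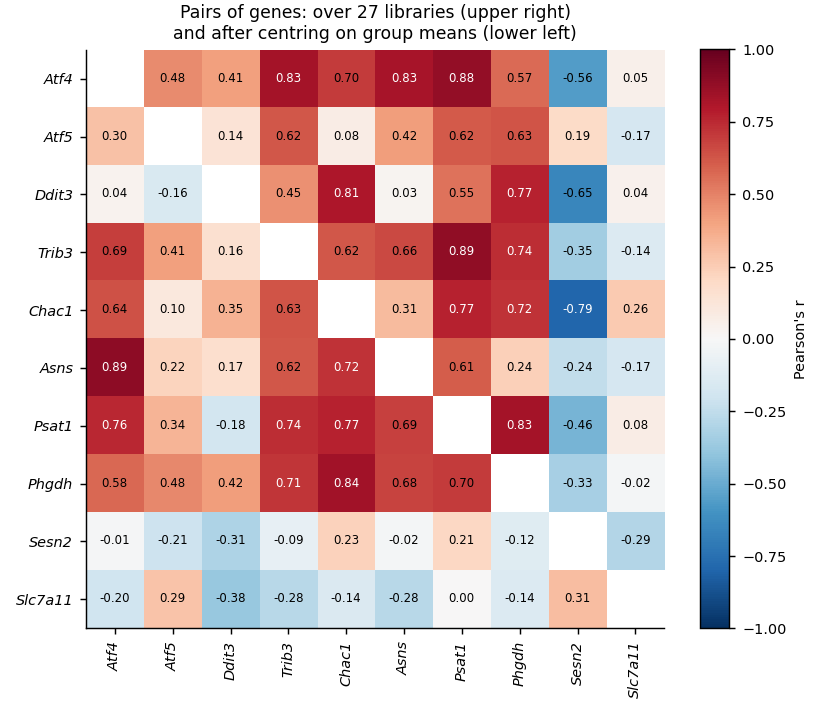
Pearson correlations between log2 levels for each pair of the 10 genes over the 27 libraries (above the diagonal) and after centring on the group means (below it), on a scale from -1 to 1. Atf4, Trib3, Chac1, Asns, Psat1 and Phgdh form a block of positive values below the diagonal, with 0.89 for Atf4 and Asns, while Sesn2 and Slc7a11 lie near or below 0 with most others.

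Other genes around this response were taken from lists. For Dox+Auxin against untreated, 33.3% of all genes were called in the SPOC line (16.7% higher and 16.6% lower). In the GFP line 38.2% were called (19.9% higher and 18.4% lower). For Dox+Auxin against Dox, 32% of all genes were called in the SPOC line (16.6% higher and 15.4% lower). In the GFP line that share was 47.6% (24.7% higher and 22.9% lower). Of 15 further amino acid synthesis genes, 2 rose and 7 fell in SPOC Dox+Auxin against untreated cells, with a median log2 fold change of -0.18, and 2 rose and 10 fell in the GFP line, with a median of -0.33. The count of rises was 1 without SPOC Dox+Auxin replicate 3 or 5 or SPOC untreated replicate 4, and 1 without GFP Dox+Auxin replicate 3. Aldh1l2, a mitochondrial folate enzyme, fell by 0.89 (SE 0.09, adjusted p = 7.3e-09) in the SPOC line and by 0.79 (SE 0.09, adjusted p = 8.6e-08) in the GFP line, and averaged 5.33 ± 0.729 CPM in SPOC Dox+Auxin against 9.88 ± 0.680 CPM in SPOC untreated libraries (SD, n = 5). Cth, which makes cysteine from cystathionine, fell by 0.40 (SE 0.08, adjusted p = 0.00046) in the SPOC line and by 0.71 (SE 0.09, adjusted p = 1.0e-06) in the GFP line. Cbs, which makes that cystathionine, rose by 0.29 (SE 0.06, adjusted p = 0.00049) in the SPOC line and by 0.49 (SE 0.07, adjusted p = 1.3e-06) in the GFP line. Against Dox, 1 of these 15 rose and 10 fell in the SPOC line (median -0.26), and 1 rose and 10 fell in the GFP line (median -0.28). In the SPOC line 2 rose without Dox+Auxin replicate 2 or 4 or Dox replicate 5, and 3 without Dox replicate 3.

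Of 18 genes for cytosolic tRNA synthetases and tRNA export, 0 rose and 5 fell in SPOC Dox+Auxin against untreated cells, and 0 rose and 10 fell in the GFP line, with medians of -0.04 and -0.10. Of all genes, 16.6% fell in the SPOC line and 18.4% in the GFP line. The SPOC count of falls in the list was 3 without Dox+Auxin replicate 2 or 4 or untreated replicate 1 or 5. In the GFP line 1 gene of the list rose without Dox+Auxin replicate 2 and with a replicate block. Tars, the threonine enzyme, fell by 0.16 (SE 0.03, adjusted p = 2.8e-05) in the SPOC line and by 0.26 (SE 0.03, adjusted p = 4.2e-08) in the GFP line. Aars, the alanine enzyme, was at -0.07 (SE 0.03, adjusted p = 0.083) in the SPOC line and fell by 0.27 (SE 0.03, adjusted p = 5.9e-08) in the GFP line. Against Dox, 0 rose and 9 fell in the SPOC line, where 15.4% of all genes fell. In the GFP line 0 rose and 13 fell, where 22.9% of all genes fell. With Dox against untreated, 4 rose and 0 fell in each line. In that comparison 6.16% of all genes rose in the SPOC line and 10.1% in the GFP line.

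Of 11 amino acid transporters, 2 rose and 3 fell in the SPOC line and 2 rose and 4 fell in the GFP line with Dox+Auxin against untreated. The share of all genes called was 33.3% in the SPOC line and 38.2% in the GFP line. Slc7a5, the large neutral amino acid transporter, fell by 0.11 (SE 0.04, adjusted p = 0.023) in the SPOC line and by 0.14 (SE 0.04, adjusted p = 0.0077) in the GFP line. Slc43a1, another carrier of that kind, rose by 0.23 (SE 0.05, adjusted p = 0.00096) in the SPOC line and by 0.25 (SE 0.06, adjusted p = 0.00069) in the GFP line. Slc7a3, an arginine transporter, fell by 0.39 (SE 0.07, adjusted p = 9.5e-05) in the SPOC line and was at 0.10 (SE 0.08, adjusted p = 0.34) in the GFP line. The count of rises was 1 without SPOC Dox+Auxin replicate 3 or SPOC untreated replicate 2 or 3, and 1 without GFP Dox+Auxin replicate 1 or 2 or GFP untreated replicate 3 or 4. The SPOC count of falls was 5 without Dox+Auxin replicate 3.

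Of 20 other ATF4 targets, 0 rose and 13 fell in SPOC Dox+Auxin against untreated cells (median -0.32), and 3 rose and 9 fell in the GFP line (median -0.20). Of all genes, 16.6% fell in the SPOC line and 18.4% in the GFP line. The GFP count of falls in the list was 5 without Dox+Auxin replicate 4, 5 without untreated replicate 1 and 14 with a replicate block. Adm2, a secreted peptide of the adrenomedullin family, fell by 1.26 (SE 0.16, adjusted p = 4.9e-07) in the SPOC line and by 1.16 (SE 0.16, adjusted p = 1.3e-06) in the GFP line. Fgf21, a stress hormone, had a fitted change of -2.77 (SE 0.56, adjusted p = 0.00027) in the SPOC line and of -2.03 (SE 0.52, adjusted p = 0.0024) in the GFP line. Its level was very low, with 0 to 0.0877 CPM in SPOC Dox+Auxin against 0.208 to 0.351 CPM in SPOC untreated libraries, and 0.0323 to 0.102 CPM in GFP Dox+Auxin against 0.118 to 0.458 CPM in GFP untreated libraries. Ndrg1, a gene of hypoxia and growth arrest, fell by 1.95 (SE 0.30, adjusted p = 3.0e-05) in the SPOC line and was at -0.71 (SE 0.31, adjusted p = 0.076) in the GFP line, where it passed at -0.73 with a replicate block (adjusted p = 0.048). Gadd45a, a growth arrest gene that p53 also controls, was at 0.08 (SE 0.05, adjusted p = 0.31) in the SPOC line and rose by 0.35 (SE 0.06, adjusted p = 2.0e-05) in the GFP line.

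Regulators upstream of the 10 genes did not move as 1 group. Of 15 eIF2 kinases and regulators, 6 rose and 1 fell in SPOC Dox+Auxin against untreated cells, and 5 rose and 3 fell in the GFP line. Over all genes, 33.3% were called in the SPOC line and 38.2% in the GFP line. The SPOC count of falls in the list was 2 without SPOC Dox+Auxin replicate 5 or SPOC untreated replicate 1. The GFP count of falls was 5 without GFP Dox+Auxin replicate 4 and with a replicate block. Eif2ak4, which encodes the amino acid sensing kinase GCN2, was at 0.04 (SE 0.04, adjusted p = 0.55) in the SPOC line and -0.03 (SE 0.05, adjusted p = 0.72) in the GFP line. Impact, an imprinted gene whose product inhibits GCN2, rose by 0.38 (SE 0.04, adjusted p = 7.7e-08) in the SPOC line and by 0.59 (SE 0.05, adjusted p = 1.1e-10) in the GFP line. It averaged 359 ± 7.30 CPM in SPOC Dox+Auxin against 276 ± 22.3 CPM in SPOC untreated libraries (SD, n = 5), and 408 ± 17.8 CPM in GFP Dox+Auxin against 270.4 ± 6.72 CPM in GFP untreated libraries (SD, n = 4). Oma1 and Dele1, which relay mitochondrial stress to the kinase HRI, rose by 0.19 (SE 0.06, adjusted p = 0.0081) and 0.16 (SE 0.04, adjusted p = 0.0011) in the SPOC line, and by 0.36 (SE 0.06, adjusted p = 1.9e-05) and 0.21 (SE 0.04, adjusted p = 0.00011) in the GFP line. Ppp1r15b, a constant partner of the eIF2 phosphatase, rose by 0.11 (SE 0.03, adjusted p = 0.0020) in the SPOC line and by 0.16 (SE 0.03, adjusted p = 0.00013) in the GFP line. Eif2ak3, which encodes PERK, was at -0.05 (SE 0.04, adjusted p = 0.28) in the SPOC line and fell by 0.14 (SE 0.04, adjusted p = 0.0044) in the GFP line.

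Among 14 partner and related bZIP factors, with Dox+Auxin against untreated, 3 rose and 4 fell in the SPOC line and 2 rose and 3 fell in the GFP line, where 1 rose without untreated replicate 1 or 4, and 5 rose and 5 fell with a replicate block. Atf3, an early stress factor and ATF4 target, fell by 1.08 (SE 0.10, adjusted p = 5.0e-10) in the SPOC line and by 0.96 (SE 0.10, adjusted p = 1.1e-08) in the GFP line. It averaged 2.91 ± 0.251 CPM in SPOC Dox+Auxin against 6.19 ± 0.784 CPM in SPOC untreated libraries (SD, n = 5), and 3.30 ± 0.402 CPM in GFP Dox+Auxin against 6.44 ± 0.305 CPM in GFP untreated libraries (SD, n = 4). Among 9 family members of the 10 genes, which include Atf3, 1 rose and 3 fell in the SPOC line and 3 rose and 3 fell in the GFP line. For both lists, the share of all genes called was 33.3% in the SPOC line and 38.2% in the GFP line. Trib1, a relative of Trib3, fell by 0.31 (SE 0.05, adjusted p = 3.1e-06) in the SPOC line and by 0.56 (SE 0.05, adjusted p = 5.8e-10) in the GFP line. Sesn3, a relative of Sesn2, rose by 0.22 (SE 0.06, adjusted p = 0.0028) in the SPOC line and by 0.34 (SE 0.06, adjusted p = 6.3e-05) in the GFP line.

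Other stress arms were compared in the same way, for Dox+Auxin against untreated. Of all genes, 16.7% rose and 16.6% fell in the SPOC line, and 19.9% rose and 18.4% fell in the GFP line. Of 19 endoplasmic reticulum chaperone and quality control genes, which ATF6 and XBP1 control, 1 rose and 11 fell in the SPOC line and 0 rose and 13 fell in the GFP line. The SPOC count of rises was 0 without Dox+Auxin replicate 2 or 4 or untreated replicate 1 or 3, and in the GFP line 2 rose without Dox+Auxin replicate 3 and 1 with a replicate block. Herpud1, which helps clear misfolded proteins, fell by 0.41 (SE 0.07, adjusted p = 1.2e-05) in the SPOC line and by 0.50 (SE 0.07, adjusted p = 1.8e-06) in the GFP line, and Xbp1, itself a factor of this arm, fell by 0.29 (SE 0.04, adjusted p = 1.4e-07) in the SPOC line and by 0.38 (SE 0.04, adjusted p = 6.0e-09) in the GFP line. This list is not separate from those above. Herpud1 is also among the other ATF4 targets, Xbp1 among the bZIP factors and Dnajc3 among the eIF2 regulators. Of 11 NRF2 targets, which include Slc7a11, 7 rose and 2 fell in the SPOC line and 6 rose and 3 fell in the GFP line. Nqo1, a quinone reductase, rose by 0.62 (SE 0.05, adjusted p = 2.6e-10) in the SPOC line and by 0.32 (SE 0.06, adjusted p = 7.4e-05) in the GFP line, while Me1, malic enzyme, fell by 0.53 (SE 0.06, adjusted p = 4.7e-07) in the SPOC line and by 0.38 (SE 0.07, adjusted p = 0.00014) in the GFP line.

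Of 14 mTORC1 amino acid sensing genes, which include Sesn2, with Dox+Auxin against untreated 4 rose and 0 fell in the SPOC line and 6 rose and 2 fell in the GFP line. The GFP count of falls was 1 without Dox+Auxin replicate 3 or 4 or untreated replicate 1 or 3, and 1 fell in the SPOC line without Dox+Auxin replicate 1 or untreated replicate 3. Rragd, a Rag GTPase, rose by 0.29 (SE 0.08, adjusted p = 0.0065) in the SPOC line and by 0.51 (SE 0.09, adjusted p = 4.9e-05) in the GFP line. Of 12 mitochondrial quality control genes, 2 rose and 2 fell in the SPOC line and 3 rose and 2 fell in the GFP line. The 12 were called at close to the share of all genes, which was 33.3% in the SPOC line and 38.2% in the GFP line. In the SPOC line 1 rose without Dox+Auxin replicate 5 or untreated replicate 4, and 4 fell without Dox+Auxin replicate 3.

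**Figure D4:**
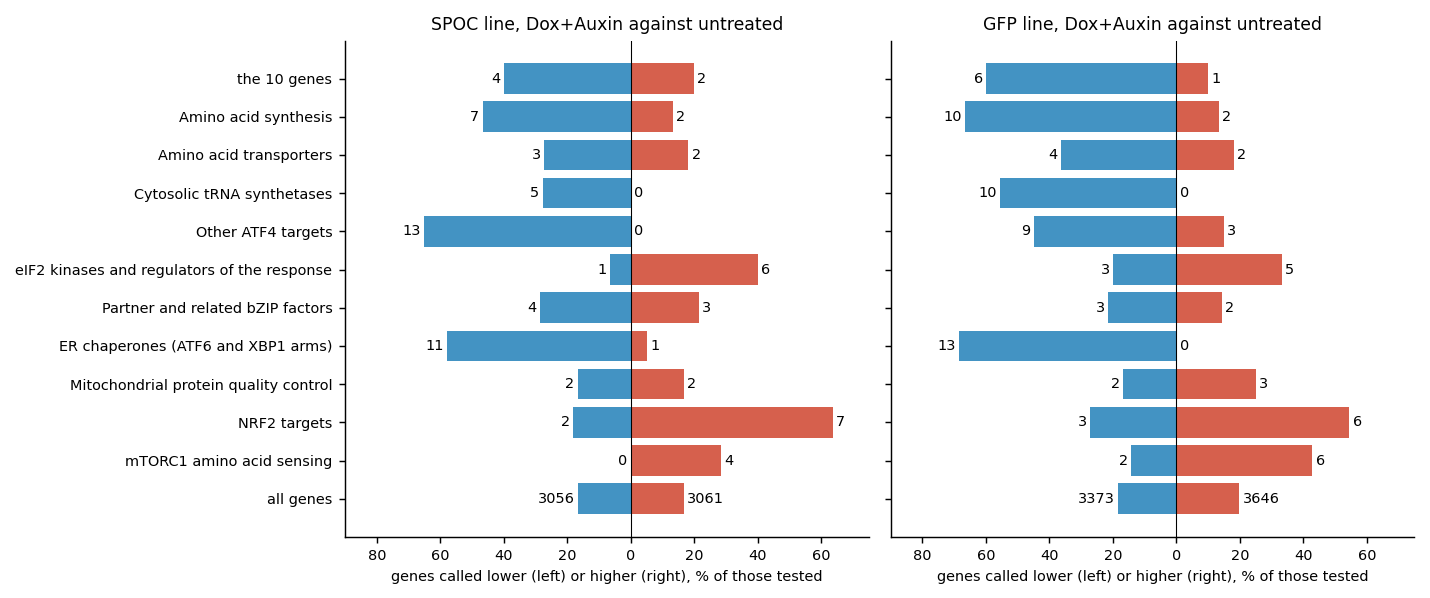
Genes called lower (left, blue) or higher (right, red) with Dox+Auxin against untreated, as a percentage of those tested (horizontal axes), for the 10 genes, 10 companion lists and all genes, in the SPOC line (left panel) and the GFP line (right panel), with the number of genes beside each bar. Endoplasmic reticulum chaperones lie mostly on the left, with 11 and 13 genes lower, and NRF2 targets mostly on the right, with 7 and 6 genes higher.

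Genes whose level followed the 10 most closely were found by the Pearson correlation with the mean centred log2 level of the 10 over all 27 libraries. That mean lay between -0.27 and -0.06 in SPOC Dox+Auxin, -0.06 and 0.10 in SPOC Dox, -0.01 and 0.09 in SPOC untreated, -0.15 and -0.07 in GFP Dox+Auxin, 0.06 and 0.21 in GFP Dox, and 0.12 and 0.22 in GFP untreated libraries. The closest were B4galnt1 (r = 0.95), a ganglioside enzyme, Shmt2 (0.94), which turns serine into glycine in mitochondria, Mcl1 (0.94), a survival factor, and Acsl6 (0.93), a fatty acid activating enzyme. Stat6 (0.93), Osbpl10 (0.93), Aldh1l2 (0.93), Rcn3 (0.93), Adm2 (0.93) and Abtb2 (0.93) completed the 10. Shmt2, Aldh1l2 and Adm2 were also on the lists above. B4galnt1 (chr10:127165225-127172330), Shmt2 (chr10:127517123-127522444) and Stat6 (chr10:127642986-127660957) lie in the same stretch of chromosome 10 as Ddit3 (chr10:127290774-127296288). Whether position has a part in their likeness was not tested. The genes were picked for this correlation, which is given as a description. Each of the 10 was centred and not scaled, so genes with a wide range weigh more in the mean. Ddit3 (6.65 to 17.8 CPM) and Chac1 (6.14 to 16.9 CPM) thus count for more than Asns (683 to 894 CPM). The 7 fibroblast markers summed to 23.4 to 29.9 CPM in SPOC Dox+Auxin against 28.0 to 32.5 CPM in SPOC untreated libraries, and 25.0 to 27.4 CPM in GFP Dox+Auxin against 33.9 to 35.3 CPM in GFP untreated libraries. Of these 7, Col3a1, Dcn, Lum and Postn were at most 0.208 CPM in any library, and Col1a1, Col1a2 and Thy1 made up the sum. The 8 naive stem cell markers, none at 0, summed to 5039 to 5490 CPM in SPOC Dox+Auxin against 5219 to 5531 CPM in SPOC untreated libraries, and 4786 to 5119 CPM in GFP Dox+Auxin against 5140 to 5356 CPM in GFP untreated libraries. Dox libraries held 5353 to 5788 CPM of them in the SPOC line and 5450 to 5619 CPM in the GFP line, which no GFP Dox+Auxin library reached. Of these 8, with Dox+Auxin against untreated 3 rose and 2 fell in the SPOC line and 1 rose and 4 fell in the GFP line, and against Dox 1 rose and 4 fell in the SPOC line and 1 rose and 6 fell in the GFP line. Against untreated, 33.3% of all genes were called in the SPOC line and 38.2% in the GFP line. Against Dox these shares were 32% and 47.6%. Against GFP Dox, Tfcp2l1 fell by 0.42 (SE 0.06, adjusted p = 7.2e-07) and Sox2 rose by 0.31 (SE 0.04, adjusted p = 3.4e-08). Of the 4 neural markers tested, with Dox+Auxin against untreated 2 rose and 2 fell in the SPOC line and 1 rose and 2 fell in the GFP line, and against Dox 1 rose and 2 fell in each line. Against GFP Dox, Pax6 rose by 2.22 (SE 0.29, adjusted p = 1.7e-07) and Map2 fell by 0.63 (SE 0.12, adjusted p = 9.3e-05). Tfcp2l1, Sox2, Pax6 and Map2 are picked examples, given for the GFP line only and without their levels. The neural list as a whole summed to 110 to 121 CPM in GFP Dox+Auxin against 122 to 150 CPM in GFP Dox libraries. The part of the marker genes in the changes of the 10 genes was not tested.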

How the data were processed

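The authors deposited 1 table of raw counts per gene for both alleles together, values under the name RPKM, and allelic counts. The deposited RPKM equalled counts over gene length and a library factor near 1, with no scaling to total reads, and served only to order genes by level per length. The 54 allelic count columns were not used. Per the submitters' processing notes tools included STAR 2.5.3a, featureCounts, Trim Galore 0.4.4, DESeq2 1.18.1 and Picard 2.18.2, and the build was mm10. The sources used here give neither the annotation nor the strand setting. Per the labels' protocols, RNA passed a RIN check and TruSeq libraries were read as paired ends on a HiSeq2500.

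Counts were scaled by TMM, filtered with filterByExpr and fitted by the robust quasi-likelihood test of edgeR 4.0.16 in R 4.3.3, with 1 term per group over all 27 libraries. Adjusted p-values are Benjamini-Hochberg values over the 18363 genes of each of 12 comparisons, and genes under 0.05 were called. The SE is the fold change over the root of its F statistic, and intervals cover 95%. Deviations of same-numbered libraries from their group means correlated at 0.103 to 0.214 in all 4 pairs of GFP Dox+Auxin and untreated libraries, so values with a replicate block stand beside the results of that comparison where they change a call or a count. Same-numbered SPOC libraries also correlated, with a median of 0.169 over 15 pairs and a highest value of 0.462. Block results of other comparisons are given at the end, and for some genes beside their values. The pairing comes from the correlations, since no label says what a number shares. The script was tested on simulated counts with known changes. GENCODE M21 held 53706 of the 53801 IDs. No source says that replicates are separate cultures beyond calling them biological, so p-values measure the spread between these libraries. No pair of libraries within a group differed by as little as sampling noise. The closest were SPOC Dox+Auxin replicates 1 and 2, with a chi-square per gene of 1.76. Elsewhere in SPOC Dox+Auxin this value was never under 6.62 and reached 13.2. The independence of replicates 1 and 2 was not tested. Tests that use SPOC Dox+Auxin count both among its 5 libraries, where the design names 4 biological replicates. If both came from 1 culture, the p-values of these tests would be too low.

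The 10 genes, the 11 companion lists and the 5 marker lists were chosen with earlier results of these data known. Beside the 10, the rule was to name at most 3 called genes per list and direction in Dox+Auxin against untreated, regulators of eIF2, and the 10 genes of at least 1 CPM most correlated with the 10, without predicted genes and pseudogenes. Of the regulators of eIF2, only a part are named. Xist, Spen and the fibroblast markers are named as checks. The markers Tfcp2l1, Sox2, Pax6 and Map2 were picked outside this rule, from GFP Dox+Auxin against Dox only. The C-terminal protein sequences of Atf4 and Atf5 were not used here. Alternatives were DESeq2 size factors, TMM from autosomal genes, no filter on low counts, a replicate block, only the groups compared, the DESeq2 1.42.0 Wald test, and leaving out each library.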

Additional observations from a re-analysis of the deposited data

Results flagged for a closer look

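Single libraries stood apart from their group for 4 of the 60 sets made of 1 gene and 1 group, and chance alone gives about 1 in 20. Atf4 was at 328 CPM in GFP Dox replicate 2, where the other libraries of the group held 307 to 309 CPM. Atf5 was at 44.2 CPM in SPOC Dox+Auxin replicate 3, against 41.1 to 41.5 CPM in the others. Ddit3 was at 10.0 CPM in SPOC untreated replicate 1, against 15.5 to 16.7 CPM in the others. Psat1 was at 554 CPM in GFP Dox+Auxin replicate 4, against 546 to 547 CPM in the others.

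The change of Atf4 with Dox+Auxin against untreated differed between the lines, by 0.26 on the log2 scale (SE 0.06, edgeR adjusted p = 0.022), with -0.06 in the SPOC line and -0.32 in the GFP line. It was the 1 difference that passed in the main fit among the 30 tested, 10 genes in each of 3 comparisons. The call was lost without GFP Dox+Auxin replicate 1 (edgeR adjusted p = 0.058). With a replicate block in edgeR, Asns also passed for this difference (adjusted p = 0.0072). For the difference in Dox+Auxin against Dox, the block added Atf4 (adjusted p = 0.0046), Ddit3 (0.014) and Asns (0.0035).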

How the results depend on the processing

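Over the alternatives, 2048 of the fold changes of the 10 genes kept their side of the threshold, 51 lost their call, 41 gained one and none that was called reversed. Sign changed in 62 that were called in neither fit. The number of the 10 genes called was 3 without the filter for GFP Dox against untreated, in place of 5, and 3 for SPOC against GFP with Dox+Auxin, in place of 5, both without the filter and with only the groups compared. For the line difference in Dox+Auxin against Dox it was 1 with DESeq2 size factors, without the filter and by the DESeq2 Wald test, in place of 0. Outside GFP Dox+Auxin against untreated, no comparison within a line had every same-numbered pair over 0.1. Deviations of same-numbered libraries correlated at -0.12 to 0.21 in the GFP line, with 6 of 12 pairs over 0.1, against 0 of 36 with different numbers, and at -0.05 to 0.46 in the SPOC line, with 10 of 15 against 3 of 60. A replicate block added calls of the 10 genes and ended none. In GFP Dox+Auxin against untreated it changed no call of the 10 other than Asns. Elsewhere its added calls included Ddit3 in GFP Dox+Auxin against Dox (adjusted p = 0.027), Ddit3 (0.0046), Chac1 (0.018) and Psat1 (0.048) in SPOC Dox against untreated, and Atf4 (0.0046), Ddit3 (0.014) and Asns (0.0035) for the line difference against Dox. For SPOC against GFP the block added Atf4 with Dox+Auxin (0.0063), Psat1 (0.0040) and Trib3 (0.011) with Dox, and Trib3 (0.039) and Sesn2 (0.046) untreated. The counts with it were 6 for SPOC Dox against untreated, 5 for SPOC against GFP with Dox, 2 for the line difference in Dox+Auxin against untreated and 3 for that against Dox. Leaving out 1 library gave 5 to 7 calls in the SPOC line and 6 to 7 in the GFP line for Dox+Auxin against untreated, 7 to 9 in the SPOC line and 7 to 8 in the GFP line for Dox+Auxin against Dox, 3 to 4 in the SPOC line and 3 to 5 in the GFP line for Dox against untreated, and 3 to 4, 3 to 4 and 3 to 6 for SPOC against GFP untreated, with Dox and with Dox+Auxin. For the line differences it gave 0 to 1, 0 to 2 and 0 to 0. Over all genes, the block gave 4146 calls in place of 2478 for SPOC Dox against untreated, 4093 in place of 2120 and 3756 in place of 1962 for SPOC against GFP untreated and with Dox, and 2006 in place of 441, 3317 in place of 1495 and 294 in place of 44 for the line differences. The first line difference had 210 calls with only its groups and 811 by DESeq2, and the last had 89 by DESeq2. Of the tRNA synthetase list 1 gene in place of 5 fell in SPOC Dox+Auxin against untreated without the filter, and of the mTORC1 list 3 in place of 6 rose in the GFP line. The cause was not tested. Depth limits Slc7a11 most, with 19 to 63 counts per library.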
